A study of Rattus norvegicus with 12 samples.

Results

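Class I MHC molecules show fragments of a cell's own proteins at its surface, and most genes described here make or load those fragments. B2m is instead the light chain of the class I molecule, and Nlrc5 acts on class I promoters. The genes are B2m, Tap1, Tap2, Tapbp, Psmb8, Psmb9, Psmb10, Psme1, Psme2 and Nlrc5 in the sixth lumbar (L6) dorsal root ganglia, where the cell bodies of sensory neurons sit beside the spinal cord. The set was named by symbol, and every probe whose accession maps to one of the 10 symbols was taken. Of these, 9 had a mapped probe, 1 probe for each gene, among 15154 symbols with a probe on the array. Nlrc5 had no mapped probe and was not analysed here. No gene of the set passed the test between any 2 groups, with or without an array that stood apart. Without that array all 9 genes had positive differences in the old ad libitum fed group over the young one, 3 of which (Psmb10, Psme2 and Tap1) turned with the scaling. Tap2, Tap1 and Psmb10 turned when a further single array was left out. The largest differences were in the immunoproteasome subunits Psmb8 and Psmb9.

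The ganglia came from male rats of the inbred Fischer 344 strain, and their total RNA was measured with a Cy3 label on 12 Agilent arrays of a single colour, 4 for each group. The group old_CR was 25 to 28 months of age and had been given food on 3 days of each week from the age of 6 weeks, which came to about 40% caloric restriction. The group old_AL was also 25 to 28 months of age and was fed ad libitum. The group young_AL was 6 months of age and was fed ad libitum. The design lists 4 rats in each group, and the labels do not say whether an array holds 1 rat, so p-values measure the spread between these samples. The question of the study was whether inflammation and oxidative stress accompany ageing of the bladder and its ganglia, and what restriction does to them, in males of a single strain.

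In every nucleated cell the proteasome cuts cytosolic proteins into peptides, and interferon gamma exchanges its catalytic subunits for the immunoproteasome subunits Psmb8, Psmb9 and Psmb10. The peptides are carried into the endoplasmic reticulum by the transporter Tap1 and Tap2 and placed with the help of tapasin (Tapbp) on a class I heavy chain bound to beta-2 microglobulin (B2m). Neurons are generally held to carry little class I at rest, and macrophages and T cells more. The ganglia were profiled whole, so fewer cells of a type and less RNA per cell cannot be told apart.

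The array of old_AL 1 stood apart in its scanner measures. Its 75th percentile of intensity was 7662, against 2634 to 3110 on the other 11, and 4026 of its spots were marked as uneven, where the other arrays had 1 to 208. Its correlation with the rest had a median of 0.907, where each of the others had 0.968 to 0.993. Differences between groups are therefore given on 12 arrays and on 11 arrays, the second without old_AL 1, while patterns by array, likeness and summed levels are given on 11. The typical SD of a gene within a group was 0.24 on the log2 scale on 12 arrays and 0.0858 on 11. The young_AL arrays were on a slide of their own and both old groups shared the other slide, which means that ageing and slide cannot be told apart. On that slide old_AL took one row and old_CR the other, so diet and slide row cannot be told apart. The young_AL arrays took row 2 of their slide, as old_CR did, while old_AL took row 1. The comparison of old_AL with young_AL thus differs in slide row as well as in slide. The tissue's defining markers were present, with 13 of 14 sensory neuron markers on the array and all 13 tested, and Prph (peripherin) at 63897 to 83482 scaled units over the 12 arrays. Scaled intensity is a probe's intensity with the 75th percentile of its array set to 1000, and it is not comparable between probes.

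The start regions of most of these genes hold letters known to be bound by interferon regulatory factors, which is why they are shown. Among the 9 genes present in the RefSeq promoter table (assembly GRCr8), which holds 250 bases before and 50 after each start, 7 hold the core of the interferon-stimulated response element (GAAA, any 2 bases, GAAA) on either strand. They are B2m, Tap1, Tap2, Tapbp, Psmb8, Psmb10 and Psme2, and 3.92% of all 33469 promoters hold these letters. Psmb9 and Psme1 do not hold them in this window, nor do the constitutive proteasome genes Psmb5, Psmb6, Psmb7, Psme3, Psme4 and Psmf1. The other motifs searched on both strands were the NF-kB site of the immunoglobulin kappa enhancer, in B2m and Tap1 and in 0.111% of all promoters, TTCNNNGAA of STAT factors, in Psmb8 and in 8.87%, and CCAAT, in B2m, Psmb8 and Psmb9 and in 37.5%. The matches of different motifs did not overlap, and the 2 interferon-type matches of Tapbp overlap each other. A match describes the letters alone. Below are the 160 bases before the start, 5′ to 3′ on the strand of the gene, with that core, or its reverse complement, in capitals. B2m is on the plus strand, and Tap1, Tap2, Tapbp, Psmb10 and Psme2 are on the minus strand. Psmb9, on the plus strand, is shown as a member without the letters in its window. It is read away from Tap1, its neighbour on the other strand, and the Tap1 match lies between their starts but outside the window of Psmb9. The match of Psmb8 straddles its start and lies partly outside such a window.
B2m chr3:129549170-129549329: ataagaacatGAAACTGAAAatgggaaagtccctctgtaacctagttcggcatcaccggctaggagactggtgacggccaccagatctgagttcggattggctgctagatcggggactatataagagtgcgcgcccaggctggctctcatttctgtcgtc
Tap1 chr20:4668544-4668703: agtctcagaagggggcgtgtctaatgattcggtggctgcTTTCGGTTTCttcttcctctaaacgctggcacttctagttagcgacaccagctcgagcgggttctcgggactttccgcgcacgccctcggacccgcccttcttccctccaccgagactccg
Tap2 chr20:4652297-4652456: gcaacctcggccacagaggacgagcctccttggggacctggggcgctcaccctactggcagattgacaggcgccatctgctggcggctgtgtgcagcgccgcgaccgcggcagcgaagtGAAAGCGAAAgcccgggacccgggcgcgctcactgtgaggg
Tapbp chr20:4967878-4968037: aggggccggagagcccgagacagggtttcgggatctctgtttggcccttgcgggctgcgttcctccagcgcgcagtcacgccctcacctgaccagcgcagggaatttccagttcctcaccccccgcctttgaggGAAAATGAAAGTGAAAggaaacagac
Psmb10 chr19:50743293-50743452: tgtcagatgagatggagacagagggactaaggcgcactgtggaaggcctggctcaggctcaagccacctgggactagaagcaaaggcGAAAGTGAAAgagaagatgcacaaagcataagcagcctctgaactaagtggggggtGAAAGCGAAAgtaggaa
Psme2 chr15:33052752-33052911: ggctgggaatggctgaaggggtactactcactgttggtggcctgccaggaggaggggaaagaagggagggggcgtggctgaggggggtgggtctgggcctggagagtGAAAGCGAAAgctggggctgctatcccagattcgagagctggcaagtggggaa
Psmb9 chr20:4668840-4668999: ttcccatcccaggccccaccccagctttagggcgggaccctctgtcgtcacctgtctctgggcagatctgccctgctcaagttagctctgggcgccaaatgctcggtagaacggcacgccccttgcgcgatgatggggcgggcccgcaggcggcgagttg
Tap2, Psmb8, Tap1 and Psmb9 are neighbours in this order on chromosome 20 of GRCr8, and Tapbp is elsewhere on the same chromosome. Psme1 and Psme2 lie on chromosome 15 with Emc9 between them.

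With age, old_AL over young_AL on 11 arrays, 0 of the 9 genes passed limma's test at an adjusted p of 0.05, where 3.24% of 20849 genes passed, 676 in number (70 to 402 when 1 of the 11 arrays was left out, fewest without young_AL 2). At an unadjusted p under 0.05 there were 5, all with positive differences (B2m, Tapbp, Psmb8, Psmb9 and Psme1), against 14.5% of all genes in that direction. All 9 differences were positive, against 59.2% of all genes, but median centring put Psmb10 and Psme2 below 0 and quantile normalization Tap1. Leaving out a single array of the 11 could put Tap1, Tap2 or Psmb10 below 0. Their median was 0.19 on the log2 scale, against 0.03 over all genes. Median centring shifted the genes together, while quantile normalization shifted them by differing amounts. The overall median was −0.07 under median centring and −0.05 under quantile normalization, where the 9 genes had medians of 0.08 and 0.13. The median of the 9 minus that of all genes was 0.15 with the 75th percentile, 0.15 with median centring and 0.18 with quantile normalization. The first and second of these match by construction, because both scalings subtract a single value from each array. The old_AL arrays lay wholly above the young_AL arrays for B2m and Tapbp, and 11.9% of all genes did so. On 12 arrays again 0 passed, where 0.0191% of 20942 genes passed, and 0 reached an unadjusted p under 0.05, against 6.71%. There 6 of the 9 differences were positive, against 44% of all genes, with a median of 0.06 against −0.06 over all genes, and the no-overlap count above was B2m alone, against 4.26%.

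With diet, old_CR over old_AL on 11 arrays, 0 of the 9 passed, where 1.06% of all genes passed, 222 in number (1 without old_CR 4, 2 without old_AL 4 and 924 without old_AL 2). At an unadjusted p under 0.05 there were 2, B2m and Tapbp, both with negative differences, against 19.2% of all genes in that direction. Of the 9 differences 7 were negative, 6 under median centring, which turned Psmb10 positive, and 37.1% of all genes were positive. The median of the 9 was −0.18 against −0.05 over all genes, and −0.08 against 0.05 under median centring. The old_CR arrays lay wholly below the old_AL arrays for B2m and Tapbp, against 15.3% of all genes. On 12 arrays 0 passed, where 0.00478% of genes passed, 0 reached an unadjusted p under 0.05 against 5.96%, and 5 differences were positive, against 54.7% of all genes. B2m alone lay wholly below on 12 arrays, against 4.55%. These differences share the old_AL arrays with those of age, so the 2 sets of signs are not independent.

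Between old_CR and young_AL 0 of the 9 passed on 11 arrays, where 2.41% of all genes passed, and 0 reached an unadjusted p under 0.05, against 18.3%. The median difference was 0.08, against −0.02 over all genes, of which 44.3% were positive. The groups overlapped for all 9 genes, where 5.59% of all genes lay wholly above and 10.2% wholly below. With 12 arrays in the fit 0 passed, where 0.0191% of all genes passed, and 0 reached an unadjusted p under 0.05, against 2.72%, with the groups overlapping for all 9 (5.56% above and 10.2% below over all genes).

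**Figure D1:**
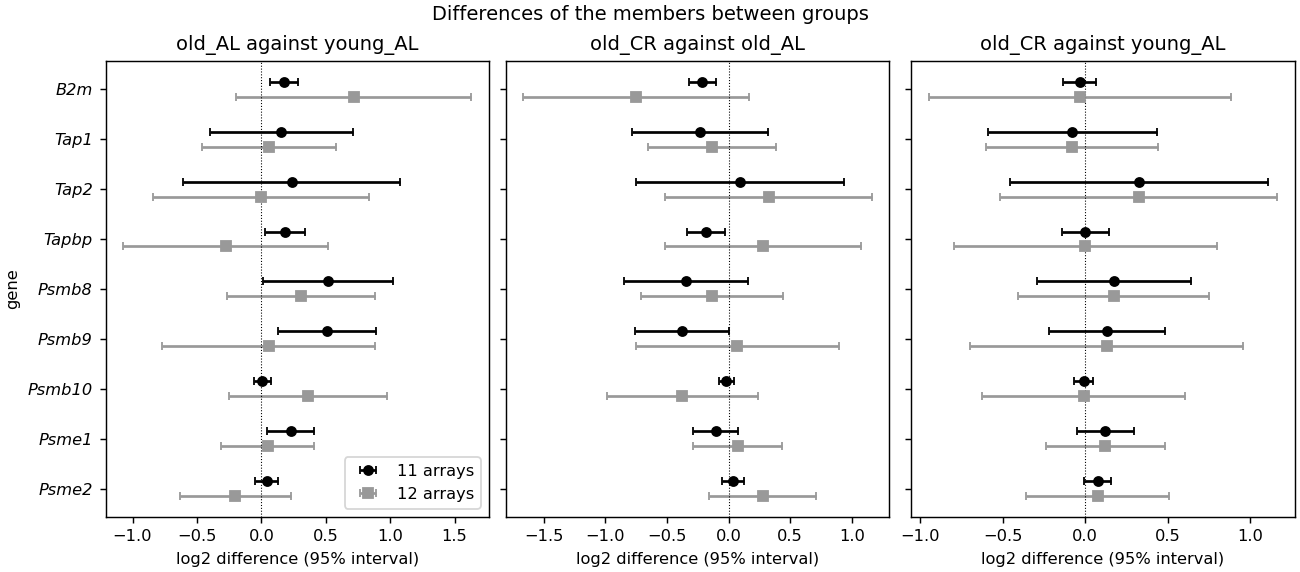
Log2 differences of the 9 genes between groups with 95% intervals, on 11 arrays (black circles) and 12 arrays (grey squares). On 11 arrays all 9 points for age lie above 0 (Psmb10, Psme2 and Tap1 turn below it under another scaling, and Tap1, Tap2 and Psmb10 when a single array is left out). The intervals for B2m, Tapbp, Psmb8, Psmb9 and Psme1 leave out 0 before adjustment over all genes.

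B2m is the light chain that every class I molecule needs to reach the surface. Its scaled intensities on arrays 1 to 4 were 18209, 16944, 18335 and 16599 in old_CR, 90353, 21108, 20485 and 19253 in old_AL, and 17749.6, 18276, 17741 and 17911 in young_AL. All 4 old_AL arrays were above all 4 young_AL and all 4 old_CR arrays, and old_AL 1 was far above the other 3. Without it the mean was 17522 ± 879 in old_CR (SD, n = 4), 20282 ± 944 in old_AL (SD, n = 3) and 17919 ± 250.2 in young_AL (SD, n = 4). The log2 difference with age was 0.18 ± 0.05 (SE) on 11 arrays, 13.1% on the linear scale, with an adjusted p of 0.0736 by limma. The difference of old_CR from old_AL was −0.21 ± 0.05 (adjusted p = 0.061), or −13.6%. On 12 arrays these were 0.72 ± 0.41 (adjusted p = 0.578) and −0.75 ± 0.41 (adjusted p = 0.644). Between old_CR and young_AL the difference was −0.03 with a 95% interval of −0.13 to 0.07. B2m was past the threshold in 3 other settings in both comparisons on 11 arrays, with the normexp background correction (adjusted p = 0.0342 for age and 0.0258 for diet), with an intensity trend in the prior (0.0423 and 0.0334) and with array weights (0.0405 and 0.0214). Of all 20849 genes these settings called 3838, 1089 and 1515 with age, and 4732, 865 and 2195 with diet. Passes of other genes under such settings stand beside the same counts, with 2968 and 2107 for median centring.

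The transporter that moves peptides into the endoplasmic reticulum is made of Tap1 and Tap2. Tap1 had scaled intensities of 95.3, 74.2, 75.1 and 74.6 in old_CR, 71.6, 108, 89.7 and 84.0 in old_AL, and 135, 58.2, 71.2 and 88.3 in young_AL. Tap2 had scaled intensities of 1344, 1309, 1321 and 1298 in old_CR, 644, 1699, 1260.2 and 887 in old_AL, and 1571, 473, 1256 and 1312 in young_AL. In both genes the young_AL arrays spanned the widest range, with young_AL 1 at the top and young_AL 2 at the bottom of their group, and the groups overlapped. Tap2 was nearly level in old_CR, with a mean of 1318 ± 19.6 (SD, n = 4), against 1153 ± 473 in young_AL (SD, n = 4). The log2 difference with age on 11 arrays was 0.15 ± 0.25 for Tap1 (adjusted p = 0.726) and 0.23 ± 0.38 for Tap2 (adjusted p = 0.727). With 95% intervals of −0.40 to 0.71 and −0.61 to 1.08, these arrays could not show a change of the size seen in B2m. For old_CR over old_AL the differences were −0.23 ± 0.25 and 0.09 ± 0.38 (adjusted p = 0.56 and 0.901). On 12 arrays the age differences were 0.06 and −0.00, and those of diet were −0.14 and 0.33.

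Tapbp encodes tapasin, which bridges the transporter and an empty class I molecule. Its scaled intensities were 309.7, 281, 289 and 287 in old_CR, 91.5, 353, 325 and 317 in old_AL, and 312, 268, 274 and 312 in young_AL. Apart from old_AL 1, the lowest of the 12, every old_AL array was above every array of the other 2 groups. The log2 difference with age was 0.19 ± 0.07 on 11 arrays (adjusted p = 0.155) and −0.28 ± 0.36 on 12 (adjusted p = 0.652), so a single array turned its sign. For diet it was −0.18 ± 0.07 on 11 arrays (adjusted p = 0.14) and 0.28 ± 0.36 on 12 (adjusted p = 0.693). The normexp correction gave Tapbp an adjusted p of 0.0443 for diet on 11 arrays, at a difference of −0.21, in a setting that called 4732 of all 20849 genes. Old_CR and young_AL differed by 0.00, with an interval of −0.14 to 0.14.

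Psmb8 is the inducible subunit that takes the place of Psmb5 and cuts after hydrophobic residues. Psmb8 had scaled intensities of 409, 326, 298 and 296 in old_CR, 232, 487, 439.9 and 342 in old_AL, and 421, 217, 252 and 317 in young_AL. Without old_AL 1, the old_AL arrays were above all young_AL arrays but young_AL 1, which was above old_AL 4. The log2 difference with age was 0.52 ± 0.22 on 11 arrays, or 43.4% on the linear scale, with an interval of 0.02 to 1.02 and an adjusted p of 0.205. It was 0.31 ± 0.26 on 12 arrays (adjusted p = 0.578). For diet it was −0.35 ± 0.22 on 11 arrays and −0.13 ± 0.26 on 12 (adjusted p = 0.337 and 0.786).

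Psmb9 takes the place of Psmb6, the subunit that cuts after acidic residues. Psmb9 had scaled intensities of 1051, 829, 772 and 806 in old_CR, 321, 1196, 1161 and 993 in old_AL, and 1058, 646, 697 and 790.4 in young_AL. The old_AL 1 array was the lowest of the 12, while old_AL 2 and old_AL 3 were the highest, and old_AL 4 lay below young_AL 1 and old_CR 1. The mean without old_AL 1 was 865 ± 126 in old_CR (SD, n = 4), 1117 ± 108 in old_AL (SD, n = 3) and 798 ± 183 in young_AL (SD, n = 4). The log2 difference with age was 0.51 ± 0.17 on 11 arrays, or 42.1%, with an adjusted p of 0.123, and 0.06 ± 0.37 on 12 arrays (adjusted p = 0.929). Psmb9 was the member that passed with age when young_AL 1 was also left out, at a difference of 0.65. For diet the difference was −0.38 ± 0.17 on 11 arrays and 0.07 ± 0.37 on 12 (adjusted p = 0.194 and 0.923).

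Psmb10 takes the place of Psmb7. Scaled intensities of Psmb10 were 6466, 6289, 6483 and 6377 in old_CR, 17443, 6573, 6390.4 and 6479 in old_AL, and 6487, 6431, 6379 and 6488 in young_AL. Leaving aside old_AL 1, its 11 values lay within 6289 to 6573. Its SD within groups was 0.0175 on the log2 scale, below the SD of 0.025 between its own replicate spots. The first is of array values, which are means over the spots used, and the second is of single spots. The difference with age was 0.01 with an interval of −0.06 to 0.07 on 11 arrays, and that of diet −0.02 with an interval of −0.08 to 0.05. The upper bound for age is under the estimates for Psmb8 and Psmb9, whose differences from Psmb10 were not tested directly. On 12 arrays the age difference was 0.36 ± 0.28 (adjusted p = 0.578), that of diet was −0.37 ± 0.28 (adjusted p = 0.644), and old_AL 1 was its sole high value.

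Psme1 and Psme2 encode the alpha and beta subunits of PA28, an interferon-inducible ring that opens the proteasome. Psme1 had scaled intensities of 5629, 5180.2, 4721 and 5046 in old_CR, 3371, 5846, 5777 and 4971 in old_AL, and 5059, 4351, 4555 and 4924 in young_AL. The arrays old_AL 2 and old_AL 3 were above all others, and old_AL 4 lay below young_AL 1. Its log2 difference with age was 0.23 ± 0.08 on 11 arrays, or 17.0%, with an interval of 0.04 to 0.41 and an adjusted p of 0.146. It was 0.05 ± 0.16 on 12 arrays (adjusted p = 0.862). Array weights gave it an adjusted p of 0.0408 on 11 arrays and 0.0341 on 12, and normexp 0.0441 on 11. With age these settings called 1515 of all 20849 genes, 1558 of 20942 and 3838 of 20849. For diet the difference was −0.10 ± 0.08 on 11 arrays and 0.07 ± 0.16 on 12 (adjusted p = 0.426 and 0.81).

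Psme2, measured by 10 spots on each array, had scaled intensities of 13444, 13027, 13744 and 13541 in old_CR, 6689, 12927, 12762 and 13668 in old_AL, and 12364, 12895, 12479 and 13242 in young_AL. Leaving aside old_AL 1, the 3 groups overlapped and no value fell under 12364. The difference with age was 0.04 ± 0.04, with an interval of −0.05 to 0.13, and that of diet 0.04 ± 0.04, with an interval of −0.05 to 0.12, on 11 arrays (adjusted p = 0.542 and 0.585). On 12 arrays they were −0.20 and 0.28 (adjusted p = 0.583 and 0.644). The partner subunits of PA28 thus had different estimates with age, and the difference between them was not tested.

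**Figure D2:**
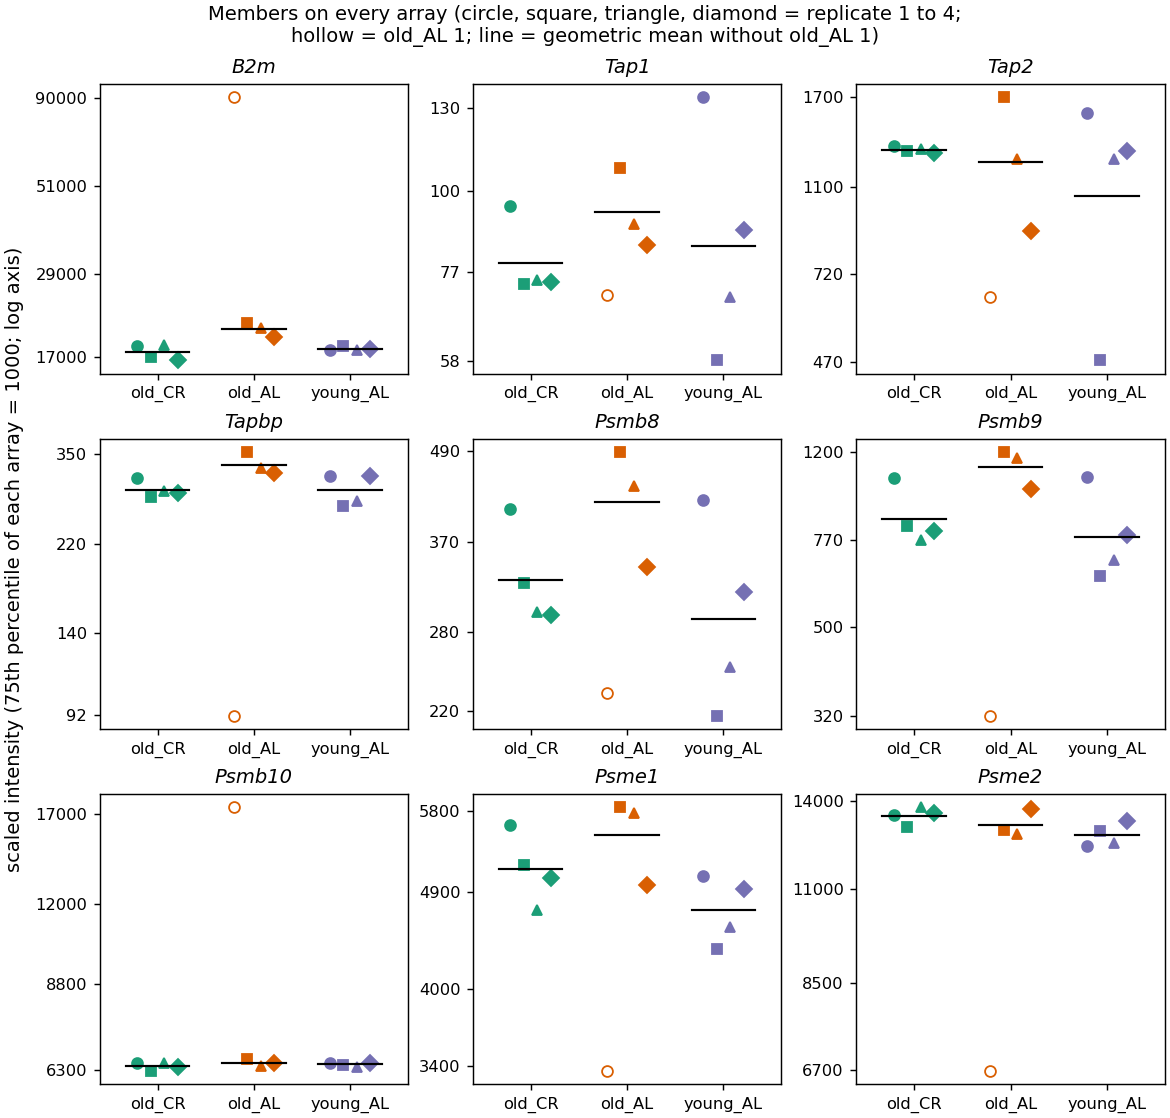
Scaled intensity of each gene on every array (log axis), with old_CR, old_AL and young_AL from left to right, replicates 1 to 4 as circle, square, triangle and diamond, old_AL 1 hollow, and a line at the geometric mean without it. In B2m and Psmb10 old_AL 1 is far above all others, in Tapbp, Psmb9, Psme1 and Psme2 it is the lowest, and in Tap1, Tap2 and Psmb8 it lies inside the range of the young_AL arrays.

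Several of the genes ordered the arrays of a group alike. In young_AL the order from highest to lowest was array 1, 4, 3 and 2 for Tap1, Tap2, Psmb8, Psmb9 and Psme1, and Tapbp had the same arrays at the bottom. In old_AL it was array 2, 3 and 4 for these 6 genes and for B2m, leaving out old_AL 1. In old_CR, array 1 was highest for the 6 genes, with the others in varying order. Psmb10 and Psme2 did not follow these orders in any group, and B2m did not in old_CR and young_AL. The spread within groups on 11 arrays was 0.53 for Tap2, 0.35 for Tap1, 0.32 for Psmb8, 0.24 for Psmb9 and 0.11 for Psme1 as log2 SDs, against 0.0214 to 0.0661 between replicate spots of these probes. It was 0.0911 for Tapbp, 0.0572 for B2m and 0.0431 for Psme2, against 0.0503, 0.0222 and 0.0341 between their spots, and 0.0175 for Psmb10, against 0.025. The spot SDs are for single spots, while an array's value is a mean over up to 10 spots for Psme2 and up to 2 for the others. Spot noise in a mean of several spots is smaller than these SDs, most so for Psme2.

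**Figure D3:**
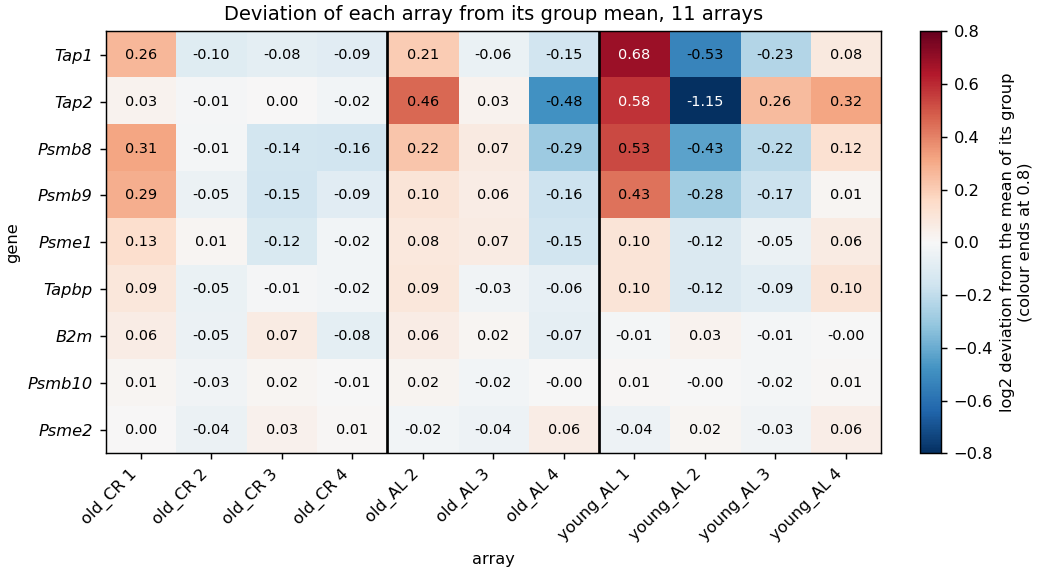
Deviation of each array from the mean of its group on the log2 scale, by gene (rows) and array (columns), on 11 arrays, with old_CR, old_AL and young_AL from left to right. Tap1, Tap2, Psmb8, Psmb9 and Psme1 are highest within their groups in old_CR 1, old_AL 2 and young_AL 1, and lowest of young_AL in young_AL 2, while B2m, Psmb10 and Psme2 stay within 0.08 of their group means.

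Interferon-stimulated genes stood high in one of these arrays. Their mean over 21 tested genes, each centred on its mean over 11 arrays, was 1.16 in young_AL 1, against −0.41 to 0.12 on the other 10. Isg15, an interferon-induced ubiquitin-like protein, had 534, 399, 479 and 383 scaled units in old_CR, 207, 623, 464 and 545 in old_AL, and 4178, 325, 353 and 1704 in young_AL. The arrays young_AL 1 and young_AL 4, the highest 2 of their group for Tap1, Psmb8 and Psmb9, were also the highest for Isg15. Isg15 was chosen after its values were seen, and the list's mean in young_AL 4 lay within the −0.41 to 0.12 of the other arrays. Skeletal muscle markers stood at 1.44 in young_AL 2, the array with the lowest Tap1, Tap2, Psmb8 and Psmb9, against −0.56 to 0.76 elsewhere. The part of either in the members' values was not tested. Without young_AL 1 the age differences were larger for Psmb8 (0.69), Psmb9 (0.65) and Tap1 (0.38), and Psmb9 was called. Without young_AL 2 they were 0.38, 0.41 and −0.02.

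The heavy chains that B2m pairs with are encoded by the RT1 genes and their relatives. Of 53 listed, 27 were tested, and RT1 genes are a family of near copies whose probes may not tell them apart. On 11 arrays 26 of the 27 had positive differences with age (22 under median centring or quantile normalization), against 59.2% of all genes, with a median of 0.25. With diet 24 had negative differences (21 and 20 under those scalings), where 37.1% of all genes had positive ones, with a median of −0.18. By limma 1 passed with age, Hfe, and 0 passed with diet, against 3.24% and 1.06% of all genes. At an unadjusted p under 0.05 there were 11 and 6. Of all genes 14.5% were so with a positive difference with age, and 19.2% with a negative one with diet. These shares apply to the lists below as well. With all 12 arrays 0 passed in either (5 and 2 unadjusted, against 6.71% and 5.96% of all genes), 13 of 27 were positive with age, against 44%, and the medians were −0.01 for age and 0.01 for diet. The list's mean over 11 arrays was 0.05, −0.06, −0.05 and −0.09 in old_CR 1 to 4, 0.21, 0.17 and 0.12 in old_AL 2 to 4, and 0.13, −0.29, −0.16 and −0.04 in young_AL 1 to 4, and −0.85 in old_AL 1. The old_AL arrays other than old_AL 1 overlapped young_AL at young_AL 1.

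Hfe, a relative of class I that binds B2m and the transferrin receptor and acts in iron balance, had scaled intensities of 68.0, 76.5, 70.4 and 69.7 in old_CR, 76.2, 60.8, 63.3 and 57.1 in old_AL, and 51.4, 43.4, 48.4 and 49.0 in young_AL. The groups did not overlap between old_AL and young_AL. It rose with age by 0.33 ± 0.07 on 11 arrays (adjusted p = 0.0361), and was 0.57 higher in old_CR than in young_AL (adjusted p = 0.00573). Between old_CR and old_AL the difference was 0.24 ± 0.07 (adjusted p = 0.0823), and it passed under median centring (0.34, adjusted p = 0.0311) and normexp (0.20, adjusted p = 0.0223). Quantile normalization, median centring, the mean of its probes, the compared groups alone, a replicate block and the leaving out of any of 8 arrays each ended the age call, which held without old_CR 2, old_AL 4 or young_AL 1 (differences of 0.28 to 0.37 over the 11 arrays left out in turn). On 12 arrays it was 0.42 ± 0.11 with age (adjusted p = 0.429) and 0.15 ± 0.11 with diet (adjusted p = 0.644). RT1-N2, the class I gene with the smallest p for diet after Hfe, had a difference of −0.28 ± 0.09 (adjusted p = 0.11) on 11 arrays and −0.28 ± 0.10 on 12 (adjusted p = 0.644), and passed with normexp on 11 (−0.30, adjusted p = 0.0393).

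By rule, the genes whose pattern was most like the mean of the 9 over 11 arrays were named from 12339 genes with a symbol. They were RT1-CE3, RT1-CE16, RT1-CE2, Sbno2 and RT1-CE7, with Pearson's r of 0.964, 0.959, 0.956, 0.954 and 0.947, given as a description across arrays that share slides and groups. Of the 25 genes most alike 14 were RT1 genes, of 30 that were searched. RT1-CE3 had scaled intensities of 476, 426, 435 and 426 in old_CR, 69.0, 564, 507 and 425 in old_AL, and 471, 341, 403 and 467 in young_AL, and old_AL 2 and old_AL 3 were its highest arrays and old_AL 1 its lowest. Its difference with age was 0.25 ± 0.13 and with diet −0.17 ± 0.13 on 11 arrays (adjusted p = 0.271 and 0.4). Both signs turned on 12 arrays, at −0.46 ± 0.55 and 0.54 ± 0.55 (adjusted p = 0.629 and 0.647).

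The constitutive subunits that the inducible ones replace are Psmb5, Psmb6 and Psmb7. Listed with them were Psme3 (PA28 gamma) and Psme4 (PA200), other caps of the proteasome, and Psmf1 (PI31), an inhibitor of it. All 6 were tested, and by limma 0 passed with age or diet on 11 arrays, with 2 and 0 at an unadjusted p under 0.05 and a median difference of 0.02 in both. The smallest p values with age were those of Psme4 at −0.13 ± 0.04 (adjusted p = 0.114) and Psme3 at 0.15 ± 0.05 (adjusted p = 0.13), and for diet those of Psme4 at 0.04 ± 0.04 and Psmb7 at 0.03 ± 0.03 (adjusted p = 0.543 and 0.592). Psme4 passed with age under median centring (−0.23, adjusted p = 0.0179) and array weights (−0.17, adjusted p = 0.0415). On 12 arrays the age differences of Psme4 and Psme3 were −0.09 and 0.10, and the diet differences of Psme4 and Psmb7 0.01 and 0.26. The 12-array medians were −0.02 and 0.05, with 0 passing (0 unadjusted in either). The list's mean stayed between −0.03 and 0.04 on the 11 arrays. Of the factors that assemble the proteasome 3 of 5 were tested and 0 passed (0 unadjusted), with medians of −0.02 for age and 0.03 for diet on 11 arrays and 0.008 and −0.03 on 12.

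The log2 ratio of each inducible subunit to the one it replaces was compared between groups by a two-sided exact permutation test on 11 arrays, in a family of 9 comparisons. With age, Psmb8 over Psmb5 differed by 0.56 and Psmb9 over Psmb6 by 0.43, each with an exact p of 0.114, where 3 against 4 arrays can give no less than 0.0571. Adjusted over the family both were 0.171. Psmb10 over Psmb7 differed by −0.02 (exact p = 0.457, adjusted p = 0.514). With diet the 3 ratios differed by −0.34, −0.38 and −0.05 (exact p = 0.114, 0.114 and 0.0571, each 0.171 after adjustment). Old_CR arrays lay below all young_AL arrays in Psmb10 over Psmb7, by −0.06 (exact p = 0.0286, the smallest that 4 against 4 can give, 0.171 after adjustment). On 12 arrays the age differences were 0.62, 0.01 and 0.58 (exact p = 0.0571, 1 and 0.8), and those of diet −0.40, 0.04 and −0.64 (exact p = 0.0571, 0.971 and 0.0286), each adjusted to 0.129 or above.

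**Figure D4:**
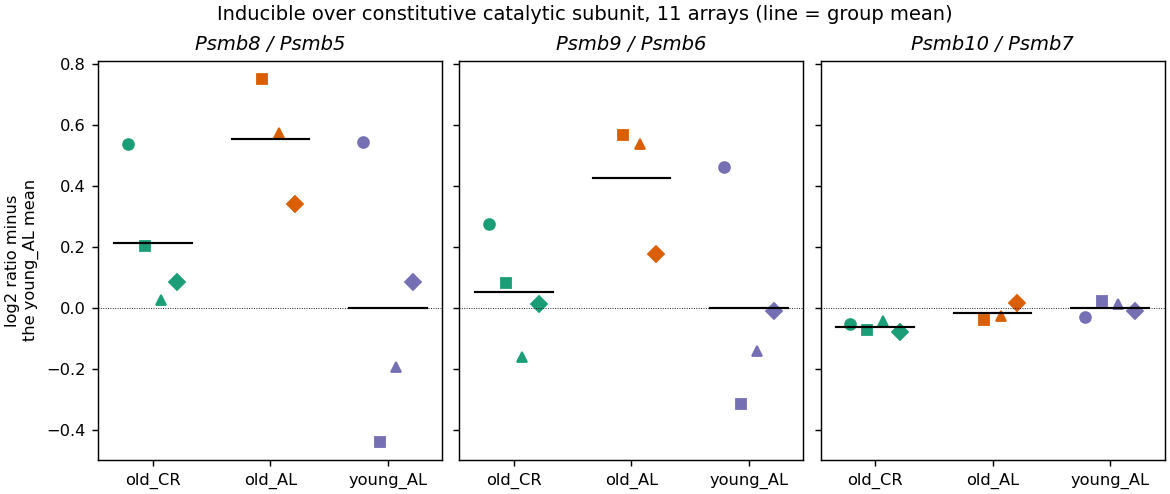
Log2 ratio of each inducible catalytic subunit to the constitutive one it replaces, minus the young_AL mean, on 11 arrays with old_CR, old_AL and young_AL from left to right (symbols as replicates 1 to 4, line at the group mean). The old_AL means are 0.56 for Psmb8 over Psmb5 and 0.43 for Psmb9 over Psmb6, and young_AL 1 lies inside the old_AL range in both, while Psmb10 over Psmb7 ranges from −0.08 to 0.02.

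Partners of the loading complex and the enzymes that trim peptides were tested for 12 of 14 listed genes. Of these 0 passed by limma on 11 arrays, with 1 at an unadjusted p under 0.05 with age and 0 with diet, and medians of −0.02 and −0.05. Tpp2, a cytosolic peptidase, and Calr, the chaperone calreticulin, had the smallest p with age, at −0.11 ± 0.04 and −0.14 ± 0.07 (adjusted p = 0.172 and 0.308). Median centring put both past the threshold (−0.21 and −0.24, adjusted p = 0.0204 and 0.0493), and normexp Tpp2 (−0.15, adjusted p = 0.0415). For diet these were Nrdc, a peptidase, at −0.07 ± 0.04 and Sec61a1, a subunit of the translocon, at −0.18 ± 0.11 (adjusted p = 0.253 and 0.31). On 12 arrays Tpp2 and Calr differed by −0.20 and 0.26 with age, and Nrdc and Sec61a1 by −0.39 and 0.01 with diet. The medians on 12 arrays were −0.06 and −0.01, and 0 passed (0 unadjusted in either).

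Upstream, 11 of 13 genes of interferon gamma signalling were tested on 11 arrays, and 0 passed by limma (0 unadjusted with age and 2 with diet), with medians of 0.09 for age and −0.09 for diet (−0.02 and 0.02 under median centring). Irf1, a factor known to bind the letters in capitals above, had scaled intensities of 1376, 1151, 1047 and 955 in old_CR, 1007, 1465, 1478 and 1368 in old_AL, and 1956, 1068, 1079.8 and 1236 in young_AL, with young_AL 1 the highest array. Its differences were 0.15 ± 0.20 with age and −0.36 ± 0.20 with diet (adjusted p = 0.673 and 0.284), and 0.02 ± 0.21 and −0.23 ± 0.21 on 12 arrays (adjusted p = 0.948 and 0.645). Irf1 lies outside the rule for named genes and, like Isg15, was chosen after its values were seen. Ptpn6, a phosphatase of blood cells, and Irf8, a factor of myeloid cells, had the smallest p with age, at 0.35 ± 0.16 and 0.66 ± 0.39 (adjusted p = 0.232 and 0.338). For diet these were Ifngr1, a receptor chain, at 0.14 ± 0.05 and Socs3, a feedback inhibitor, at −0.46 ± 0.18 (adjusted p = 0.118 and 0.155). Ifngr1 passed under median centring (0.24, adjusted p = 0.0374) and normexp (0.15, adjusted p = 0.0376), and Socs3 with normexp (−0.49, adjusted p = 0.0357). On 12 arrays Ptpn6 and Irf8 differed by −0.27 and 0.18 with age, and Ifngr1 and Socs3 by 0.09 and 0.07 with diet. On 12 arrays, of 12 tested, 0 passed (0 unadjusted in either), with medians of −0.02 and −0.06.

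Of the factors that sit on class I and class II promoters with Nlrc5 or Ciita, 8 of 8 were tested and 0 passed by limma (0 unadjusted with age and 2 with diet), with medians of −0.03 for age and −0.09 for diet on 11 arrays. Their medians on 12 arrays were 0.02 and −0.12, and 0 passed (0 unadjusted). Ciita, the class II activator, and Rfxap had the smallest p with age, at 0.47 ± 0.26 and −0.08 ± 0.05 (adjusted p = 0.303 and 0.379), and Nfyc and Rfxap with diet, at −0.17 ± 0.07 and 0.13 ± 0.05 (adjusted p = 0.145 and 0.15). Past the threshold under another setting were Ciita with age by normexp (0.36, adjusted p = 0.0451), and with diet Nfyc by normexp (−0.22, adjusted p = 0.031) and Rfxap by median centring (0.23, adjusted p = 0.0494). On 12 arrays Ciita and Rfxap differed by 0.46 and 0.41 with age, and Nfyc and Rfxap by 0.15 and −0.35 with diet. Of the interferon-stimulated genes 21 of 26 were tested and 0 passed on either 11 or 12 arrays (0 unadjusted), with medians of −0.20 for age and −0.14 for diet on 11, and −0.47 and 0.10 on 12. Mx2 and Dtx3l had the smallest p with age, at −0.20 ± 0.10 and 0.71 ± 0.52 (adjusted p = 0.255 and 0.428), and Dtx3l and Bst2 with diet, at −0.82 ± 0.52 and −0.48 ± 0.43 (adjusted p = 0.324 and 0.477). The 12-array differences were 0.28 for Mx2 and 0.42 for Dtx3l with age, and −0.53 for Dtx3l and 0.05 for Bst2 with diet.

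Markers of immune cells, which are known to carry more class I than neurons, are given beside the values above. On 11 arrays 2 of 14 T cell markers rose with age, Cd8a by 2.21 ± 0.34 and Cd6 by 0.79 ± 0.18 (adjusted p = 0.0195 and 0.0495), and the list's median was 0.76, with 1 called under quantile normalization. Of 16 macrophage markers 4 rose, Gpnmb, Lyve1, Mrc1 and Cd163, by 1.48, 1.09, 1.13 and 1.81 (adjusted p = 0.0133, 0.0135, 0.0377 and 0.0336), and the median was 0.80. Of 10 NK and cytotoxic markers 0 passed by limma, with 9 at an unadjusted p under 0.05 and a median of 1.47. With diet 0 passed among T cell, macrophage and NK markers (3, 4 and 8 unadjusted), with medians of −0.39, −0.41 and −1.42. Of all genes 3.24% passed with age and 1.06% with diet. At an unadjusted p under 0.05, 14.5% of all genes were higher with age and 19.2% lower with diet. With old_AL 1 included 0 passed in these lists, with medians of 0.46, 0.54 and 1.07 for age and 0.02, −0.22 and −0.98 for diet, and 3, 6 and 2 with age and 0, 1 and 3 with diet at an unadjusted p under 0.05. Of all genes 6.71% and 5.96% were under it. The age differences there were 1.31 for Cd8a, 0.32 for Cd6, 1.66 for Gpnmb, 0.65 for Lyve1, 0.42 for Mrc1 and 0.93 for Cd163.

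The summed scaled intensity of the T cell markers was 987 to 1523 in old_CR, 1425 to 1579 in old_AL 2 to 4 and 819 to 1111 in young_AL. For the macrophage markers it was 11489 to 14831, 14619 to 19149.6 and 9612 to 12885 in the same groups, and for the NK and cytotoxic markers 32383 to 36918, 43126 to 47767 and 36591 to 40532. In each list the sums of old_AL 2 to 4 lay above those of young_AL without overlap, and the sums of old_CR overlapped old_AL in the T cell and macrophage lists. Bright probes weigh most in such a sum, because scaled intensity is not comparable between probes. The centred mean of the NK list was 2.30 in old_AL 2, the highest of old_AL 2 to 4 for B2m, Tap1, Tap2, Tapbp, Psmb8, Psmb9 and Psme1, against −0.65 to 0.40 on the other 10. Erythroid markers also stood highest in old_AL 2, as given under the other observations. The part of immune or red blood cells in the differences of the 9 genes was not tested.

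**Figure D5:**
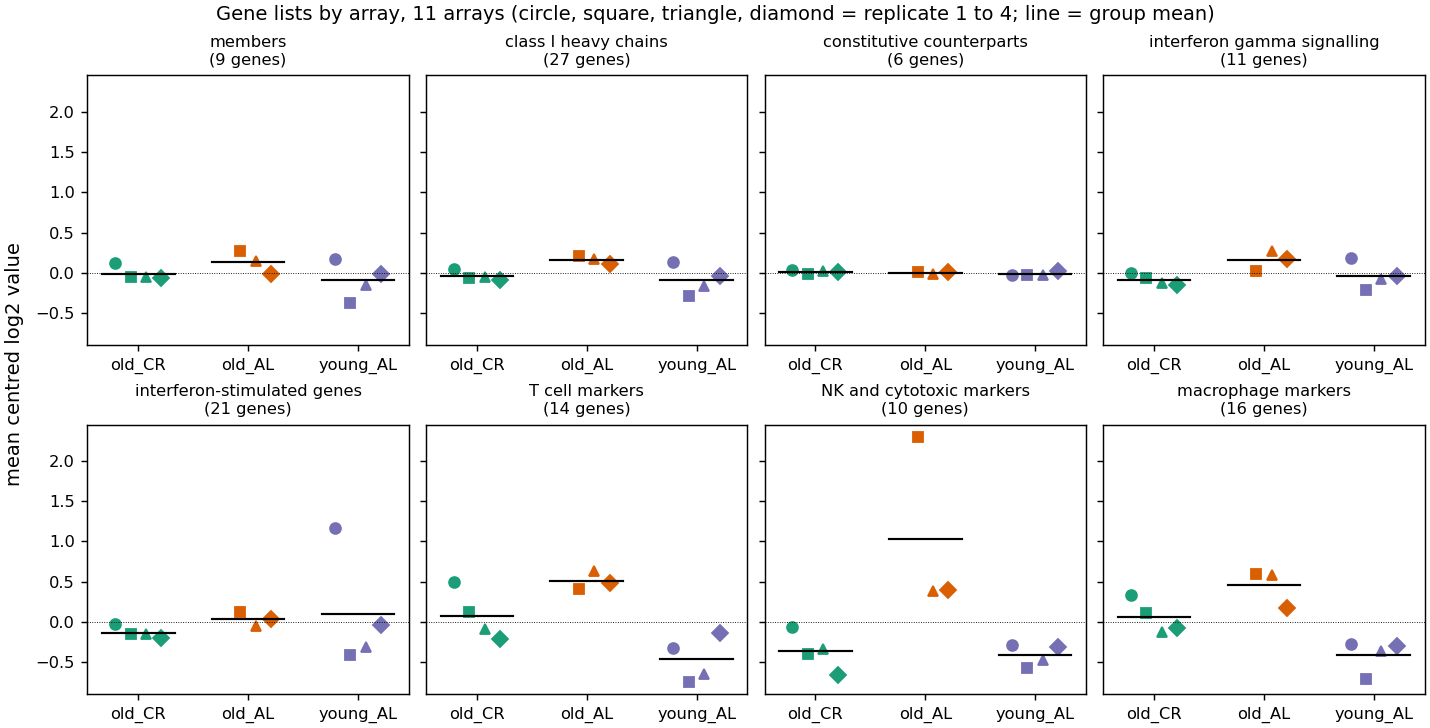
Mean of each list by array, each gene centred on its mean over 11 arrays (log2), with old_CR, old_AL and young_AL from left to right and a line at the group mean. The 9 genes range from −0.38 to 0.27, T cell, NK and macrophage markers are higher in old_AL than in young_AL on every array, and the interferon-stimulated genes stand at 1.16 in young_AL 1.

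Markers of the other cell types of a ganglion are given on 11 arrays first, where 3.24% of all genes passed with age and 1.06% with diet. At an unadjusted p under 0.05, 14.5% of all genes were higher with age and 19.2% lower with diet. Camp and Ngp, granule proteins of neutrophils, rose with age by 2.28 and 2.26 (adjusted p = 0.00332 and 0.0149), 2 of 5 tested. Of 13 sensory neuron markers Isl1 and Nefh fell with age by 0.19 and 0.25 on the log2 scale, and Isl1 rose with diet by 0.31 (adjusted p = 0.048, 0.0359 and 0.0289). Of 6 satellite glia markers 0 passed with age, while with diet Aqp4, the water channel aquaporin 4, rose by 1.004 and Slc1a3, a glutamate transporter, fell by 0.36 (adjusted p = 0.0363 and 0.0289). By limma 0 passed with age or diet among the Schwann cell (7 tested), fibroblast (6), endothelial (6), erythroid (5), dendritic (4), skeletal muscle (4) and B cell (2) markers, with 3, 5, 2, 4, 2, 0 and 0 at an unadjusted p under 0.05 with age and 2, 1, 3, 3, 0, 0 and 1 with diet. Their medians with age, in this order, were −0.17, −0.22, 0.12, 0.87, 0.35, 0.17 and 0.09, and those with diet −0.14, −0.23, −0.20, −0.48, −0.30, −0.26 and −0.11. With old_AL 1 included 0 of the marker lists had a call in either comparison, and the erythroid list had 6 tested. On those 12 arrays the medians with age, in the order above, were −0.17, 0.004, −0.02, 0.55, 0.35, −0.07 and 0.002, and those with diet −0.20, −0.50, −0.08, −0.37, −0.21, −0.11 and −0.02. For neutrophil, sensory neuron and satellite glia markers they were 1.24, 0.19 and 0.07 with age and 0.12, −0.19 and −0.19 with diet, where 11 arrays gave 1.46, 0.0009 and −0.03 with age and −0.03, −0.01 and −0.15 with diet. Of the genes named, 12 arrays gave 1.59 for Camp, 1.40 for Ngp, −0.35 for Isl1 and −0.13 for Nefh with age, and 0.47 for Isl1, 0.92 for Aqp4 and −0.33 for Slc1a3 with diet.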

How the data were processed

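The deposited values were scanner output, per the file headers: a processed intensity for each spot of 12 one-colour arrays, with background subtracted and spatial trend removed and no scaling between arrays, made with Agilent Feature Extraction 10.7 per the submitters' processing notes. A table of the whole series held identical intensity values as deposited, linear and not centred.

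Control spots and outlier spots were left out, spots of a probe were averaged, and log2 intensity minus the array's 75th percentile was analysed. Of 30367 gene probes, 17998 were matched by accession to 15154 symbols of the RefSeq table of assembly GRCr8, used for names, and 12369 were not. A probe was kept if well above background on at least 4 arrays, and the brightest probe stood for its gene. All spots of the 9 genes were well above background on every array, and 0 were saturated.

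Groups were compared with limma 3.58.1 in R 4.3.3, with tables read by data.table, version 1.17.8, and with one mean per group over all arrays and Benjamini-Hochberg adjustment over all genes, at a threshold of 0.05. The number of arrays limits the precision. The fit was tested on simulated data. Alternatives were normexp (offset 50) on spot and background medians, quantile and median normalization, other probe filters and probe rules, an intensity trend, array weights, the compared groups alone, a replicate block, the series table, and each array left out.

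The members, the lists, and the choice to leave out old_AL 1 were made with earlier results of these data known. All members are named. From each other list the genes that passed in either fit are named, or otherwise up to 2 with the smallest p, and the 5 genes most like the members' mean by Pearson's r.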

Additional observations from a re-analysis of the deposited data

Results flagged for a closer look

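Each gene was checked in each group of 4 arrays for a value far from the other 3, a check that chance triggers in about 1 of 20 groups. It picked out 6 of the 27 gene and group pairs, and 5 of the 6 were in old_AL 1. In that array B2m was at 90353 scaled units and Psmb10 at 17443, both far above the rest of old_AL. In the same array Tapbp was at 91.5, Psmb9 at 321 and Psme2 at 6689, all far below the rest of old_AL. The sixth was Tap1 in old_CR 1, at 95.3, against 74.2 to 75.1 in the other old_CR arrays.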

How the results depend on the processing

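The number of genes of the set past the threshold was 0 in all 6 combinations of comparison and array set, and moved in 8 of 72 alternatives that kept all arrays. On 11 arrays with age it was 2 with normexp, 2 with array weights and 1 with an intensity trend, and with diet 2, 1 and 1. Of all 20849 genes the same settings called 3838, 1515 and 1089 with age, and 4732, 2195 and 865 with diet. On 12 arrays array weights gave 2 with age and 1 with diet, where 1558 and 1981 of all 20942 genes were called. Leaving out each array gave 0 to 1 with age on 11 arrays, the 1 being Psmb9 without young_AL 1. The cause was not tested.

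Some differences changed sign. With age on 11 arrays these were quantile normalization for Ciita (−0.074) and Tap1 (−0.030), and median centring for Psmb10 (−0.094) and Psme2 (−0.060). With diet on 11 arrays they were median centring for Nrdc (0.031) and Psmb10 (0.084), and the replicate block for Tap2 (−0.011). Between old_CR and young_AL, normexp gave 0.020 for Psmb10 and −0.024 for Tapbp on either set. With age on 12 arrays quantile normalization gave −0.051 for Psme1 and 0.045 for Tap2, median centring 0.028 for Tap2, and array weights 0.021 for Psme2, 0.27 for Tap2 and 0.20 for Tapbp. With diet on 12 arrays they were −0.021 for Psmb9 by quantile normalization, and −0.44 for Psmb9, −0.16 for Psme1 and −0.18 for Tapbp by array weights.

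Leaving out 1 array at a time turned the sign of some genes, with these ranges. With age on 11 arrays they were −0.0027 to 0.018 for Psmb10, −0.021 to 0.38 for Tap1 and −0.15 to 0.48 for Tap2. With age on 12 arrays they were −0.13 to 0.51 for Psmb9, −0.038 to 0.23 for Psme1, −0.30 to 0.042 for Psme2, −0.12 to 0.29 for Tap1, −0.39 to 0.23 for Tap2 and −0.46 to 0.19 for Tapbp. With diet on 11 arrays they were −0.15 to 0.32 for Tap2. With diet on 12 arrays they were −0.35 to 0.0095 for Psmb8, −0.38 to 0.26 for Psmb9, −0.10 to 0.16 for Psme1 and −0.18 to 0.46 for Tapbp. Between old_CR and young_AL on either set they were −0.25 to 0.15 for Tap1, −0.059 to 0.52 for Tap2 and −0.038 to 0.035 for Tapbp.

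With diet, list medians took the other sign for the loading partners (0.051) and interferon gamma signalling (0.016) under median centring, and for the promoter-bound partners of Nlrc5 (0.11) under quantile normalization. Hfe lost its call with age under quantile normalization (0.07) and median centring (0.23, adjusted p = 0.0636). Over all genes on 11 arrays 676 were called with age (61.5% higher) and 222 with diet (25.2% higher). With quantile normalization there were 1067 (22.9%) and 393 (69.5%), with median centring 2968 (13.1%) and 2107 (86.7%), with normexp 3838 (86.3%) and 4732 (506 higher), and without a filter 542 (72.9%) and 128 (12.5%). The compared groups alone gave 25 and 0, array weights 1515 and 2195, and an intensity trend 1089 and 865. Leaving out 1 array of the 11 gave 70 (without young_AL 2) to 402 (without old_AL 2) with age. With diet it gave 1 (without old_CR 4) to 924 (without old_AL 2), with 2 without old_AL 4 and 10 without young_AL 3, and each array but old_AL 3 moved the count by over 1.5 times. Between old_CR and young_AL it gave 42 (without young_AL 3) to 862 (without old_AL 4). On 12 arrays 4 and 1 were called, and 1558 and 1981 with array weights. Without a filter the median of all genes with diet was −0.12.

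Same-numbered arrays of different groups did not deviate together, with correlations of −0.0888 to 0.0867 on 11 arrays, so the numbers were not taken as pairs. With the replicate block 20, 1 and 17 genes were called in the comparisons of age, diet and old_CR with young_AL, and 0 of the 9. The series table gave identical values. Limits are the single slide for each age, the single slide row for each group (with old_AL alone on its row), 3 old_AL arrays beside old_AL 1, and 1 probe for each gene.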

Other observations

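Skeletal muscle markers, 4 genes tested, stood at 0.76 in old_AL 4 and 1.44 in young_AL 2 as centred log2 means, and at −0.56 to 0.45 on the other 9 arrays. Erythroid markers, 5 genes, stood at 1.37 in old_AL 2, against −0.64 to 0.24 elsewhere. Neutrophil markers, 5 genes, were at 0.08 to 0.53 in old_CR, −0.07 to 1.07 in old_AL 2 to 4 and −1.32 to −0.45 in young_AL.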
